A study of Mus musculus with 31 samples.

Results

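The genes described here are 46 genes of the endoplasmic reticulum (ER) of the secretory pathway, measured by RNA-seq in cells of the newborn mouse pancreas. They were taken from the tables by gene symbol, from a fixed list of 8 stress sensors, transcription factors and their outputs, 19 chaperones and folding enzymes, 12 genes of the translocon and signal peptidase, and 7 genes of ER-associated degradation. All 46 were among the 38283 features of the tables. The study asked what Igf2 made by the pancreatic mesenchyme does for the growth and function of the organ. C57BL/6 pups were taken at postnatal day 2, and FACS separated each pancreas into YFP+ mesenchymal and YFP- non-mesenchymal cells.

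The design had a deletion and an overexpression model, and every group, controls included, carried the Nkx3.2-Cre allele, which acts in the mesenchyme. Mutants of the Igf2 model were Igf2+/fl; Nkx3.2Cre/+ and their controls Igf2+/+; Nkx3.2Cre/+. Mutants of the H19DMD model were H19DMDfl/+; Nkx3.2+/Cre and their controls H19DMD+/+; Nkx3.2+/Cre. Non-mesenchymal cells of either mutant were therefore not the cells targeted by Cre. Values were analysed here for 21 of the 31 samples. In the H19DMD model these were mesenchymal cells of 3 controls and 4 mutants and non-mesenchymal cells of 3 controls and 4 mutants. In the Igf2 model they were non-mesenchymal cells of 4 controls and 3 mutants. Mesenchymal cells of the Igf2 model were not analysed here.

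Proteins bound for secretion enter the ER through the Sec61 translocon, lose their signal peptide to signal peptidase, and fold with the help of chaperones and of enzymes that form disulfide bonds. Proteins that fail to fold are drawn back to the cytosol and degraded. When unfolded protein builds up, the sensors encoded by Ern1, Eif2ak3 and Atf6 start the unfolded protein response, in which the transcription factors Xbp1, Atf4 and cleaved Atf6 raise the expression of chaperones and of degradation genes. Acinar cells of the pancreas, which secrete digestive enzymes, are known for a very dense rough ER.

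The ER stress element is the classic DNA site of this response, so the promoter windows of the members were searched for it. It was searched as CCAAT and CCACG with 9 bases between them, on both strands, from 250 bases before to 50 after each RefSeq start (GRCm38.p6). Windows were found for 39 members. A match was present in 10 of these 39 genes, or 25.6%, against 37 of all 27025 genes with a window, or 0.137%. Since the members were listed for their roles in this pathway, the contrast is not an independent test. The 10 were Hspa5, Hsp90b1, Calr, Canx, Pdia6, Ero1lb, Dnajc3, Creld2, Syvn1 and Derl3, and Hsp90b1 held a match on each strand. They comprised 8 chaperones and 2 degradation genes, with none among the 7 sensor genes and 9 translocon genes that had a window. A second form of the site, ATTGG and CCACG with 1 base between, was present in 12 genes, or 0.0444%, among them Herpud1 and Dnajb11. The element TGACGTGG was in 193 genes, or 0.714%, and in 0 members. The amino acid response element TGATGNAA was in 1219 genes, or 4.51%, and in the members Trib3 and Herpud1. A match is a run of letters and not a measured binding site, and a window without one says nothing about the factor. Stretches around 6 of the matches are shown because these genes cover the range of behaviour between the cell fractions, from Pdia6, Calr and Hspa5 to Ero1lb, Derl3 and Herpud1. For Derl3 the direction was fixed by the expression filter described below. Each is read 5′ to 3′ on the strand of its gene, and capitals mark both letter blocks of the element; where the element lies on the other strand they read CGTGG and ATTGG.
Hspa5, chr2:34772005-34772063, plus strand: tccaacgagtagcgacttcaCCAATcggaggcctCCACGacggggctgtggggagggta
Pdia6, chr12:17266471-17266529, plus strand: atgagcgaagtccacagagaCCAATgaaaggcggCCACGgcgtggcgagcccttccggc
Calr, chr8:84847055-84847113, minus strand: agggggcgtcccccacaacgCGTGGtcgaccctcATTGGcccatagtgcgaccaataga
Ero1lb, chr13:12565662-12565720, plus strand: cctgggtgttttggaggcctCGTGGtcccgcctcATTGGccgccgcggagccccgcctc
Derl3, chr10:75893222-75893280, plus strand: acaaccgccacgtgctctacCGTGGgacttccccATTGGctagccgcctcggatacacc
Herpud1, chr8:94386357-94386407, plus strand: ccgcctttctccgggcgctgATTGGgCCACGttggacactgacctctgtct

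**Figure D1:**
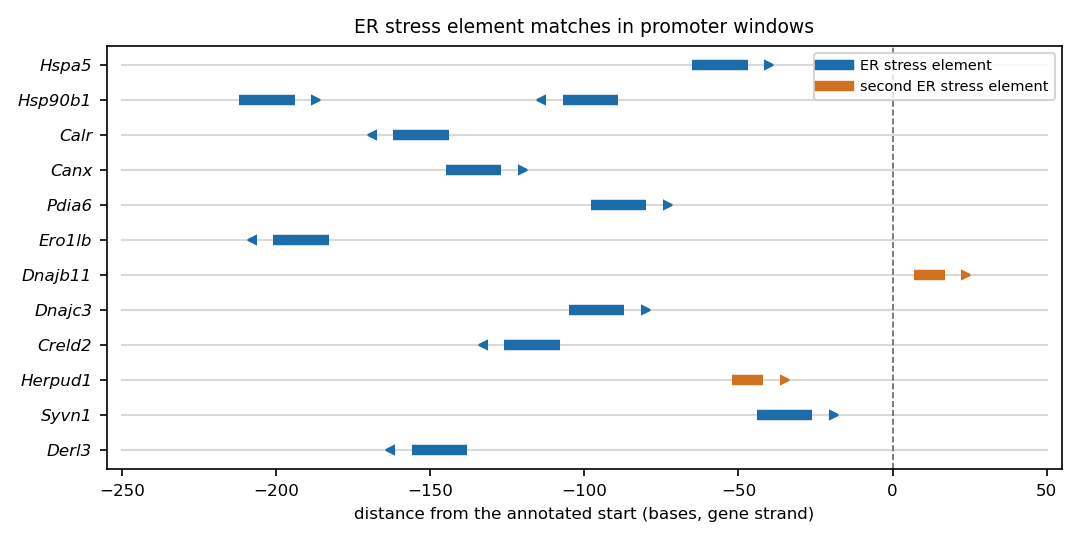
Positions of the ER stress element (blue) and its second form (orange) in the promoter windows of the 12 members with a match. The x axis is the distance from the annotated start in bases on the gene's strand, arrows give the strand of the match, and grey lines give the window; the Dnajb11 match alone lies after the start, at bases 7 to 17, and the match nearest before the start is that of Syvn1.

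Values are FPKM, fragments counted per length of transcript and per depth of the library, so levels can be set side by side between genes. Each library had 17476 to 20918 features above 0, and the numbers of reads are not given in the sources used here. The 3 highest features held 38.2% to 82.5% of the summed FPKM of a library. Libraries of the same group correlated with each other at only 0.694 to 0.773, which limits what the tests can detect. The H19DMD and Igf2 libraries were deposited as separate tables, and the scaling between them is not given in the sources used here, so tests were made only within a table. In the mesenchymal H19DMD libraries, Igf2 was 6162 to 7923 FPKM in mutants and 3648 to 4024 in controls, and H19 was 565 to 835 FPKM in mutants and 2437 to 2454 in controls. The summed list of mesenchymal markers was 5943 to 7598 FPKM in mesenchymal and 165 to 467 FPKM in non-mesenchymal libraries, and the acinar list was 712 to 2204 FPKM in mesenchymal and 36207 to 128510 FPKM in non-mesenchymal libraries. The endothelial list was higher in mesenchymal libraries by value, at 98.8 to 105 against 19.2 to 49.5 FPKM in H19DMD controls and 82.1 to 147 against 27.2 to 35.8 FPKM in mutants. Its part in the members' differences was not tested. Ptf1a, an acinar factor, was listed at 0 in all 7 mesenchymal libraries. Nkx3-2, whose locus drives Cre, was listed at 0 in all 7 non-mesenchymal H19DMD libraries, and also in mesenchymal control library 3 and mutant library 4. The labels do not say that libraries of a group came from different animals, so p-values measure the spread between these libraries. FPKM do not tell a change in the number of cells of a type from a change in RNA per cell.

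In control pancreas, a set of folding and degradation genes led by Pdia2, Ero1lb and Sdf2l1 was lower in mesenchymal cells, while most chaperones and nearly all translocon genes did not differ past the threshold. Of the 45 members tested with limma on log2(FPKM + 1), 13 were lower in mesenchymal than in non-mesenchymal cells at an adjusted p under 0.05, and 1 was higher. Over all 16732 features tested, 10.3% were lower and 12.4% higher. The count of lower members was 8 without non-mesenchymal control library 2. The 13 comprised 6 of 19 chaperones and folding enzymes, 5 of 7 degradation genes including Derl3, 1 of 12 translocon genes and 1 of 7 sensor genes. The median log2 fold change over all 46 members was -0.30, against 0.08 over all features tested. Trib3, a pseudokinase gene switched on late in the stress response, was below the mean of 1 FPKM needed for a test in every comparison and reached at most 2.08 FPKM in any library. Derl3 passed that filter only through the non-mesenchymal libraries, where it is high, so its direction was fixed by the filter in both genotypes. Of the 44 other members tested, 12 were lower in controls.

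The same comparison within H19DMD mutants gave 14 members lower and 1 higher of 45 tested, against 15.1% lower and 13.5% higher of all 16767 features. The count of higher members was 2 without non-mesenchymal mutant library 3 or without library 4. Leaving out Derl3, 13 of 44 were lower. The 14 comprised 4 chaperones, 3 degradation genes, 5 translocon genes and 2 sensor genes. The median over all 46 members was -0.37, against -0.03 over all features tested. Beside Derl3, 7 members were lower in both genotypes, Pdia2, Ero1lb, Sdf2l1, Hyou1, Spcs3, Herpud1 and Edem1. A further 5 passed in controls and not in mutants, and 6 in mutants and not in controls. No member passed the test of the difference between genotypes itself, given at the end of the genotype comparisons. The genotype comparisons use the same libraries as those between fractions, so they are not independent of them. The acinar list stood at 775 to 1767 FPKM in mesenchymal and 50790 to 128510 in non-mesenchymal control libraries, and the endocrine list at 82.7 to 246 and 20412 to 30704 FPKM. The ductal list stood at 48.3 to 100.1 and 1138 to 1811 FPKM, the leukocyte list at 17.6 to 33.7 and 351 to 695 FPKM, the erythroid list at 17.8 to 19.3 and 125 to 443 FPKM, and the neural list at 5.62 to 8.17 and 27.6 to 47.2 FPKM. The part that these cell types have in the members' differences was not tested.

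**Figure D2:**
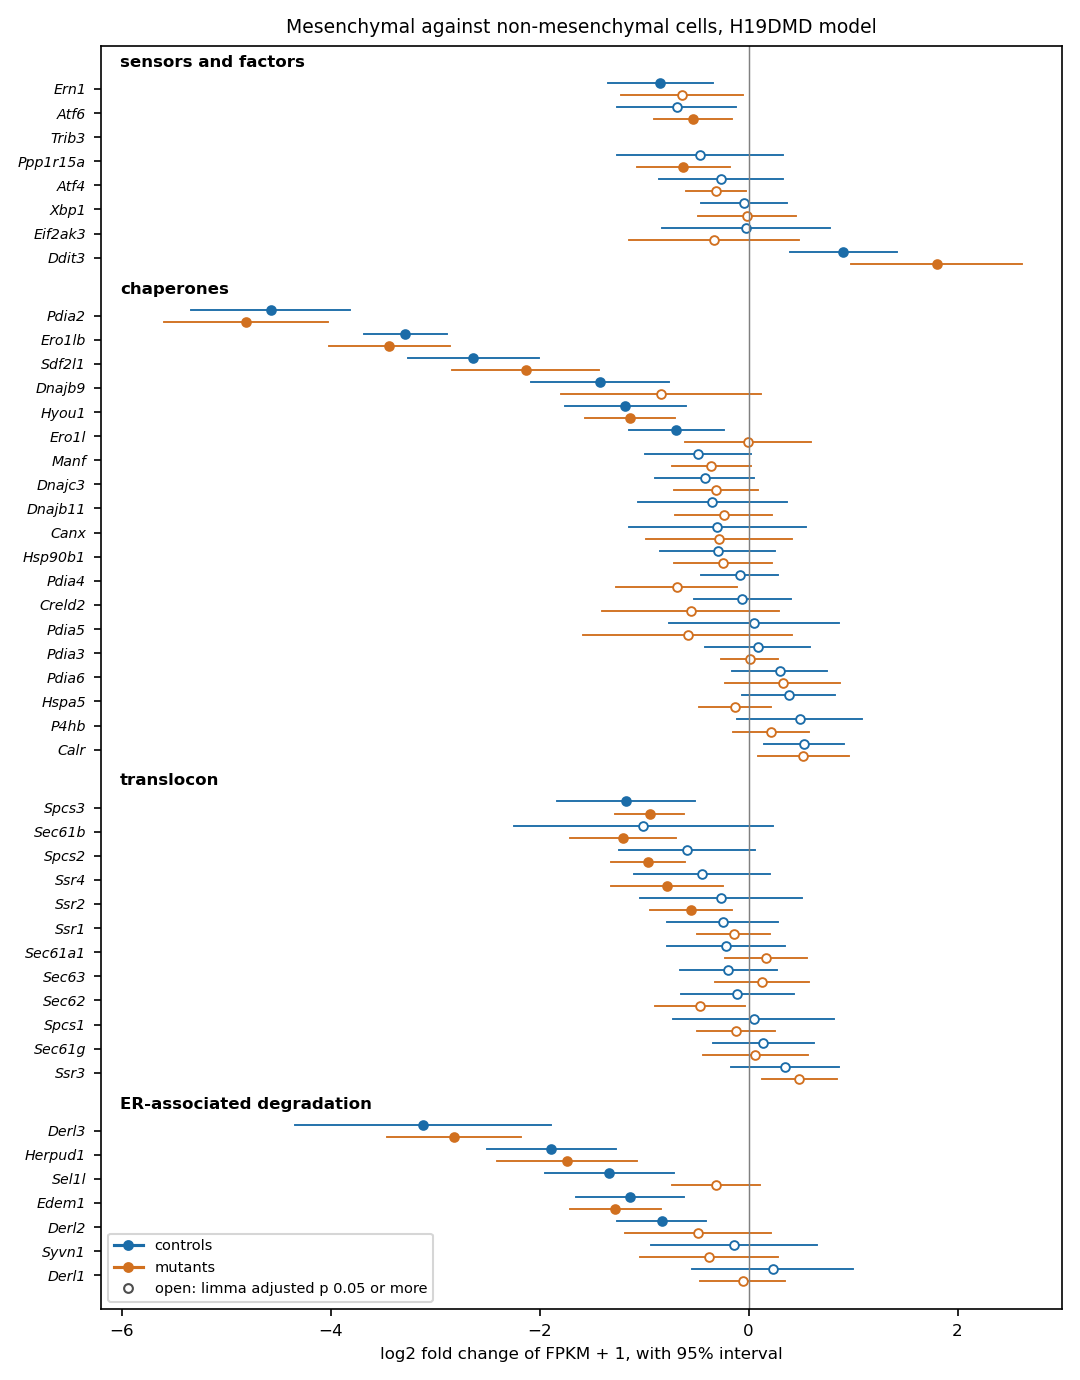
Log2 fold change of FPKM + 1 in mesenchymal against non-mesenchymal cells for the members tested, by role, in H19DMD controls (blue) and mutants (orange), with 95% intervals from limma; filled points have an adjusted p under 0.05. Trib3 was not tested, and the direction of Derl3 was fixed by the filter. Pdia2, Ero1lb, Derl3 and Sdf2l1 lie farthest to the left in both genotypes, and Ddit3 is the filled point to the right of 0.

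Among the chaperones and folding enzymes, Pdia2 differed the most. It encodes a protein disulfide isomerase known for its expression in the pancreas. It was 1.35, 1.95 and 1.42 FPKM in the mesenchymal control libraries and 39.7, 62.9 and 85.7 FPKM in the non-mesenchymal ones. Every non-mesenchymal library was far above every mesenchymal one. The ratio of means was 40.0-fold, and the log2 fold change was -4.57 ± 0.31 (SE; limma adjusted p = 0.00034). In mutants Pdia2 was 0.29 to 2.47 FPKM in mesenchymal and 42.4 to 87.2 FPKM in non-mesenchymal cells, with a log2 fold change of -4.81 (adjusted p = 2.36e-05). By contrast, the other isomerase genes were not lower in mesenchymal cells at the threshold. Pdia3 was 143 ± 16.5 FPKM (SD, n = 3) in mesenchymal and 136 ± 28.4 FPKM (SD, n = 3) in non-mesenchymal control cells, and P4hb, the classic protein disulfide isomerase, was 334 ± 36.2 and 242 ± 60.7 FPKM.

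The oxidase genes that recharge these isomerases also differed between the fractions. Ero1lb, the form known from pancreas, was 1.95, 1.91 and 2.25 FPKM in mesenchymal and 29.7, 28.7 and 27.3 FPKM in non-mesenchymal control libraries. Its libraries were close together within each fraction and the fractions were 14.03-fold apart (log2 fold change -3.28 ± 0.16, SE; limma adjusted p = 0.000137). In mutants the log2 fold change was -3.44 (adjusted p = 2.75e-05). Ero1l, the broadly expressed form, was 9.83 FPKM in mesenchymal and 16.4 FPKM in non-mesenchymal control cells on average (log2 fold change -0.69, adjusted p = 0.0447), a call that was lost when any of the 6 libraries was left out (adjusted p 0.0536 to 0.134). In mutants it was 12.5 and 12.3 FPKM, with a log2 fold change of -0.00 (adjusted p = 0.993).

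Sdf2l1, which encodes a stress-induced partner of the chaperone BiP, was 4.24, 4.56 and 5.81 FPKM in mesenchymal and 29.1, 30.7 and 48.7 FPKM in non-mesenchymal control libraries. The fractions did not overlap and differed 7.43-fold (log2 fold change -2.64 ± 0.26, SE; limma adjusted p = 0.00107). Hyou1, a nucleotide exchange factor for BiP, was lower in mesenchymal cells of controls (14.02 against 33.3 FPKM, log2 fold change -1.18) and of mutants (11.8 against 26.6 FPKM, -1.14). Its control call was lost without mesenchymal control library 3 or non-mesenchymal control library 2 or 3 (adjusted p up to 0.0629). Dnajb9, a J-domain partner of BiP, was lower in controls (7.30 against 21.7 FPKM, -1.42, adjusted p = 0.0133). In mutants it was 9.53 against 16.5 FPKM (adjusted p = 0.178), and the fractions overlapped.

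The most abundant chaperones did not pass the threshold in either genotype. Hsp90b1, which encodes GRP94, was the most abundant member in every group, at 1158 ± 224 FPKM (SD, n = 3) in mesenchymal and 1410 ± 188 FPKM (SD, n = 3) in non-mesenchymal control cells, with overlapping libraries (log2 fold change -0.29, adjusted p = 0.423). That value ranged from -0.45 without mesenchymal control library 2 to -0.19 without non-mesenchymal control library 2. Hspa5, which encodes BiP, the main ER chaperone, was 357, 458 and 475 FPKM in mesenchymal and 347, 319 and 315 FPKM in non-mesenchymal control libraries. All mesenchymal values were above all non-mesenchymal ones, but the log2 fold change of 0.38 did not pass (adjusted p = 0.194). In mutants Hspa5 was 301 to 352 FPKM in mesenchymal and 285 to 400 FPKM in non-mesenchymal cells (log2 fold change -0.13, adjusted p = 0.558), and the value ranged from -0.24 without non-mesenchymal mutant library 1 to -0.08 without non-mesenchymal mutant library 4. Calr, the lectin chaperone calreticulin, was 164, 152 and 136 FPKM in mesenchymal and 111, 103 and 97.2 FPKM in non-mesenchymal control libraries (log2 fold change 0.53, adjusted p = 0.0589). In mutants its log2 fold change was also 0.53 (adjusted p = 0.0719, and 0.047 without non-mesenchymal mutant library 4). Of the 10 members with an ER stress element in their window, 1 beside Derl3 was lower in mesenchymal cells, Ero1lb, in controls and again in mutants, and 0 were higher. Of the 29 others with a window, 9 were lower in controls and 8 in mutants. Over all features 10.3% and 15.1% were lower, and the difference between members with and without the element was not tested.

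The genes of ER-associated degradation were lower in mesenchymal cells for 4 of the 6 members other than Derl3 in controls and for 2 of the 6 in mutants, where 10.3% and 15.1% of all features were lower. Of 16 further degradation genes outside the members, 0 were lower in controls and 2 in mutants, and 0 were higher. The counts of the members therefore do not extend to the degradation genes as a class. Derl3, a derlin of secretory cells, was listed at 0.34, 0 and 0 FPKM in mesenchymal and at 4.53, 7.08 and 18.5 FPKM in non-mesenchymal control libraries. The non-mesenchymal libraries spanned a wide range but stayed above all mesenchymal ones. In mutants Derl3 was 0 to 0.93 FPKM against 6.28 to 9.29 FPKM. Its call is among the 13 and the 14 lower members, but its fold change and p are not read here, since it could pass the filter only by being high in the non-mesenchymal libraries. Derl1, a derlin of most cells, was 10.1 and 8.64 FPKM in control mesenchymal and non-mesenchymal cells (log2 fold change 0.23, adjusted p = 0.648), and its log2 fold change ranged from 0.05 without mesenchymal control library 2 to 0.50 without non-mesenchymal control library 2.

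Herpud1, a membrane scaffold of the degradation complex, was 9.62, 11.8 and 6.47 FPKM in mesenchymal and 32.8, 34.3 and 42.2 FPKM in non-mesenchymal control libraries. It differed 3.91-fold without overlap (log2 fold change -1.89 ± 0.25, SE; limma adjusted p = 0.00362), and by -1.74 on the log2 scale in mutants (adjusted p = 0.00261). Sel1l, the adaptor of the ubiquitin ligase encoded by Syvn1, was 35.2, 51.4 and 45.6 FPKM against 90.8, 103 and 147 FPKM in controls (log2 fold change -1.33, adjusted p = 0.0133). In mutants it was 50.1 to 80.2 FPKM in mesenchymal and 70.7 to 93.5 FPKM in non-mesenchymal cells, with overlap (log2 fold change -0.31, adjusted p = 0.245, and -0.17 without mesenchymal mutant library 1). Edem1, which marks misfolded glycoproteins for removal, was lower in both genotypes (8.13 against 19.04 FPKM in controls, 6.56 against 17.4 FPKM in mutants). Derl2 was lower in controls (log2 fold change -0.83, adjusted p = 0.0198), a call lost without mesenchymal control library 1 or 3 or non-mesenchymal control library 1 or 2, and was at -0.48 in mutants (adjusted p = 0.279, and -0.23 without mesenchymal mutant library 4). Syvn1 did not pass in either (adjusted p = 0.807 and 0.377).

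**Figure D3:**
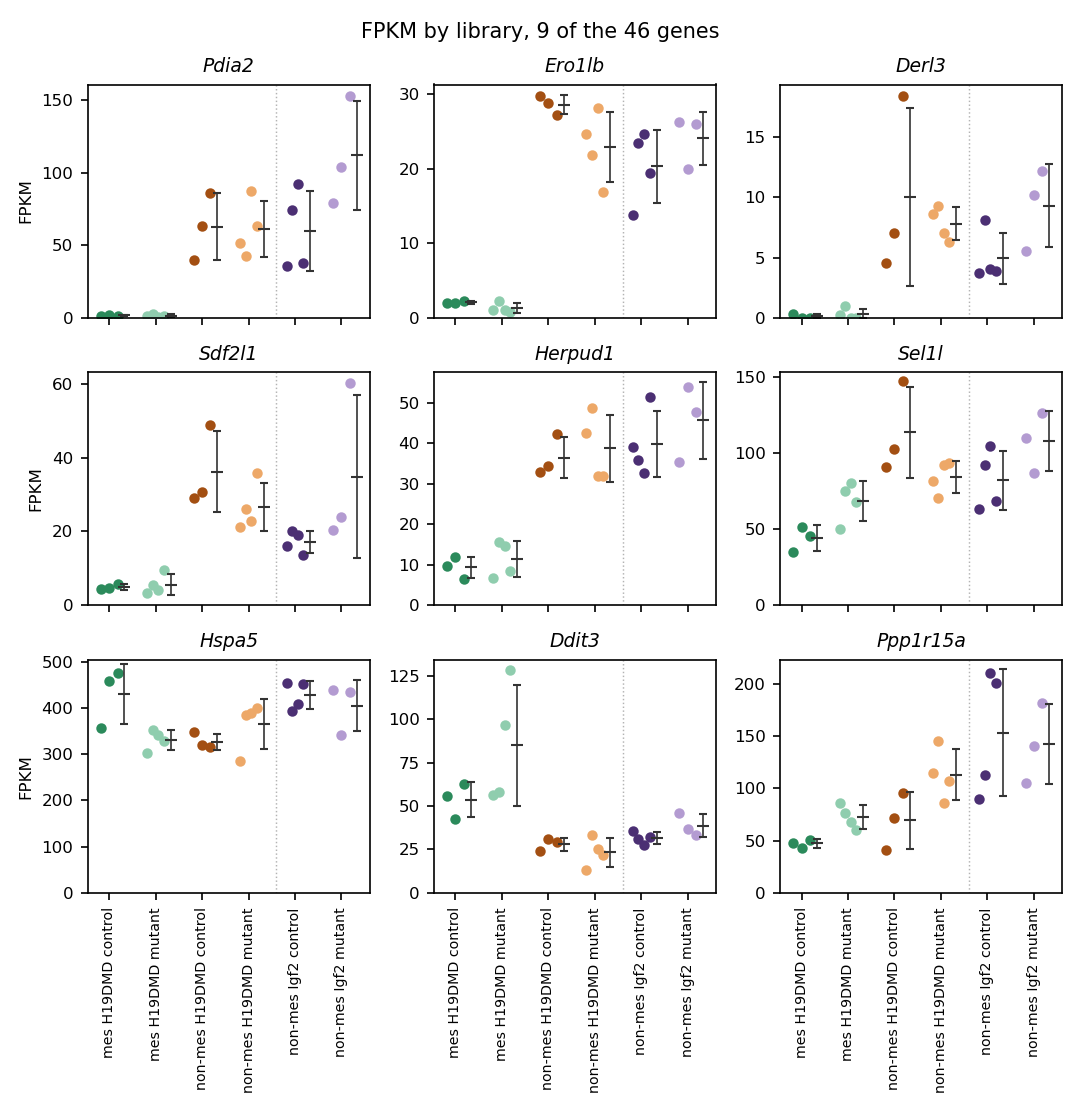
FPKM of 9 members in every library (points) with the mean and SD of each group (bars to the right of the points), where mes is mesenchymal and the dotted line separates the 2 tables, whose scaling to each other is not given. Pdia2, Ero1lb, Derl3, Sdf2l1 and Herpud1 are low in all mesenchymal libraries, Hspa5 is at 285 to 475 FPKM throughout, and Ddit3 is higher in mesenchymal than in non-mesenchymal libraries of the same genotype within the H19DMD table. The direction of Derl3 was fixed by the filter.

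Of the 12 translocon genes, 1 was lower in mesenchymal cells of controls and 5 in mutants, where 10.3% and 15.1% of all features were lower, and 0 were higher. Spcs3, a subunit of signal peptidase, was 11.6, 19.4 and 15.5 FPKM in mesenchymal and 27.7, 45.4 and 35.4 FPKM in non-mesenchymal control libraries (log2 fold change -1.17 ± 0.27, SE; limma adjusted p = 0.0271). It was also lower in mutants (-0.95, adjusted p = 0.00153). The control call was lost without mesenchymal control library 1 or 3 or non-mesenchymal control library 2 or 3 (adjusted p 0.0752 to 0.0818). Sec61b, the beta subunit of the channel, ranged from 12.5 to 43.1 FPKM in mesenchymal and from 36.3 to 77.9 FPKM in non-mesenchymal control libraries, which overlapped (log2 fold change -1.01, adjusted p = 0.221, and -0.52 without mesenchymal control library 3). In mutants Sec61b was 15.7 to 29.3 FPKM against 42.3 to 65.0 FPKM without overlap (-1.20, adjusted p = 0.00423). Spcs2, another signal peptidase subunit, and Ssr4 and Ssr2 of the translocon-associated complex were also lower in mutants (log2 fold changes -0.96, -0.78 and -0.55), and in controls were at -0.59, -0.44 and -0.26 without passing. When a control library was left out, Ssr4 ranged from -0.70 (non-mesenchymal library 1) to -0.24 (non-mesenchymal library 2) and Ssr2 from -0.57 to -0.08 (the same libraries). The mutant call of Ssr4 was lost without any mutant library except mesenchymal library 4, and that of Ssr2 without any except mesenchymal libraries 1 and 2. Ssr3, also of that complex, pointed the other way, at 151.8 against 118 FPKM in controls (adjusted p = 0.308) and 153 against 109.7 FPKM in mutants (log2 fold change 0.49, adjusted p = 0.0504, and 0.0253 without non-mesenchymal mutant library 3).

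Among the sensors and factors, Ddit3 alone was higher in mesenchymal cells. It encodes CHOP, a transcription factor of prolonged stress. It was 55.9, 42.7 and 62.7 FPKM in mesenchymal and 23.8, 30.9 and 29.2 FPKM in non-mesenchymal control libraries (log2 fold change 0.91 ± 0.21, SE; limma adjusted p = 0.0269). In mutants it was 56.4, 58.0, 97.0 and 129 FPKM against 13.2, 33.2, 25.5 and 21.8 FPKM (1.80 ± 0.35, SE; adjusted p = 0.00608). The fractions did not overlap in either genotype. The control call was lost when mesenchymal control library 1 or 3 or non-mesenchymal control library 1, 2 or 3 was left out, with adjusted p from 0.0252 to 0.0843 over the alternatives tried. Other annotated genes, a second entry of the same name on the same strand and Gm4189 and Mars on the other, together cover 10.9% of the exonic bases of Ddit3, and the use of strand in the counting is not given in the sources used here. Mars was 25.1 FPKM in mesenchymal and 36.5 FPKM in non-mesenchymal control cells (adjusted p = 0.265), and the part of the overlap in the values of Ddit3 was not tested.

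The sensors themselves were low. Ern1, the kinase and ribonuclease that splices Xbp1 mRNA, was 6.41, 5.47 and 7.87 FPKM in mesenchymal and 14.6, 11.9 and 11.3 FPKM in non-mesenchymal control libraries (log2 fold change -0.84, adjusted p = 0.0329; -0.63 and 0.0999 in mutants). Its control call was lost without any control library except mesenchymal library 3. Atf6, the membrane-bound factor, was lower in mutants (10.1 against 15.1 FPKM, adjusted p = 0.0398), and in controls was at 9.08 against 15.2 FPKM (adjusted p = 0.0909). The mutant call of Atf6 was lost without any mutant library except mesenchymal library 1. Eif2ak3, which encodes the kinase PERK, was 10.1 and 9.94 FPKM in control fractions. Xbp1 was 74.1 ± 9.10 FPKM (SD, n = 3) in mesenchymal and 76.1 ± 7.32 FPKM (SD, n = 3) in non-mesenchymal control cells, and gene-level values do not separate its spliced form. Atf4, whose output is set largely at translation, was 100.5 ± 6.97 and 124 ± 34.5 FPKM (adjusted p = 0.483). Ppp1r15a, the phosphatase subunit that ends the translation block, was lower in mesenchymal cells of mutants (72.5 against 113 FPKM, adjusted p = 0.0435), and in controls was at 47.3 against 69.3 FPKM (adjusted p = 0.38). Its mutant call was lost without any mutant library except mesenchymal library 1 and non-mesenchymal library 3.

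Other genes of the pathway, from lists chosen by function, gave the members a wider setting. Of 105 such genes tested in controls, 17 were higher and 9 lower in mesenchymal cells, and in mutants 18 were higher and 13 lower of 104. These shares are near those over all features, 12.4% higher and 10.3% lower in controls and 13.5% and 15.1% in mutants. Of the lower genes, 3 in controls (Agr2, Bhlha15 and Calr4) and 4 in mutants (Bhlha15, Calr4, Creb3l4 and Sesn2) passed the filter only through the non-mesenchymal libraries, so their direction was fixed by it, which leaves 6 and 9. Collagen folding genes, which serve the chains that mesenchyme secretes, were higher for 11 of 13 in each genotype, and 0 were lower. P4ha2, a collagen prolyl hydroxylase, was 53.1 against 4.54 FPKM in controls, and Crtap, of the prolyl 3-hydroxylation complex, 97.0 against 10.1 FPKM. Of the other translocation genes, Tram2 was higher (31.0 against 5.75 FPKM), and Sec11c, a signal peptidase subunit (28.2 against 88.7 FPKM), and Serp1 (51.7 against 111 FPKM) were lower. Bhlha15, the acinar factor Mist1, was 0.54 against 10.2 FPKM, and Creb3l1, a stress transducer related to Atf6, was higher (49.4 against 21.6 FPKM). In the integrated stress response list Asns (7.27 against 41.6 FPKM) and Sesn2 (1.08 against 4.40 FPKM) were lower, and Vldlr (21.4 against 4.02 FPKM) and Atf5 (39.04 against 11.04 FPKM) were higher. Stt3b (31.1 against 62.0 FPKM) and Magt1 (22.0 against 37.1 FPKM) of the oligosaccharyltransferase were lower. Calr4 was 0.12 against 3.596 FPKM and Agr2 was listed at 0 against 2.98 FPKM. Uggt2 (39.9 against 20.1 FPKM) and Txndc5 (38.6 against 13.7 FPKM) were higher. The signal recognition particle list had 0 of 9 tested genes past the threshold in either direction in both genotypes.

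In mesenchymal cells of the H19DMD model, where Cre acts, no member passed the test between mutants and controls. Of 44 members tested 0 were called with limma, against 0.0694% of all 15856 features, and 2 had an unadjusted p under 0.05. These were Ppp1r15a and Sel1l. Ppp1r15a was 86.0, 76.1, 68.1 and 59.9 FPKM in mutants and 48.0, 42.9 and 50.9 FPKM in controls. All mutant libraries were above all control ones (log2 fold change 0.60, 95% interval 0.19 to 1.01, limma adjusted p = 0.927). Sel1l was 50.1, 74.8, 80.2 and 68.1 FPKM in mutants and 35.2, 51.4 and 45.6 FPKM in controls (0.62, interval 0.09 to 1.14, adjusted p = 0.927). Mutant library 1 lay within the control range. The groups did not overlap for 3 of the members, Ppp1r15a, Hspa5 and Pdia4, or 3 of 44, against 5.39% of all features.

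Hspa5 was 301, 352, 341 and 327 FPKM in mesenchymal mutants and 357, 458 and 475 FPKM in controls (log2 fold change -0.37, 95% interval -0.76 to 0.02, limma adjusted p = 0.927). Its exact two-sided permutation p of 0.0286 is the smallest that 4 against 3 libraries can give, before any correction for the number of members. Pdia4, another disulfide isomerase, was 26.1 against 36.5 FPKM (-0.49, adjusted p = 0.927). The lowest and highest other fold changes were those of Syvn1 (19.3 against 28.9 FPKM, -0.61), Ero1lb (1.24 against 2.04 FPKM, -0.48) and Ddit3 (85.0 against 53.8 FPKM, 0.58), all with overlapping libraries. Ddit3 was at 0.36 without mutant library 4. Ero1lb ranged from -0.79 to -0.18 over the alternative ways of processing, and from -0.68 to -0.38 when a library was left out. Xbp1, Atf4, Pdia2 and Sec61b differed by 0.07, 0.06, -0.26 and -0.14 on the log2 scale. Pdia2 was at -0.02 without mutant library 3 and at -0.50 without mutant library 2, and Atf4 ranged from 0.01 without control library 3 to 0.11 without control library 2. The median over all 46 members was -0.03, against -0.07 over all features tested.

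Non-mesenchymal cells of the H19DMD model also had 0 of 45 members called with limma, against 0.0677% of all 16239 features, and 1 member had an unadjusted p under 0.05. That was Ppp1r15a, at 114, 146, 86.0 and 107 FPKM in mutants and 40.8, 71.6 and 95.5 FPKM in controls (log2 fold change 0.76, 95% interval 0.02 to 1.497, limma adjusted p = 0.894). Mutant library 3 lay within the control range. The groups overlapped for every member, against 5.68% of all features whose groups did not. The next highest values were those of Derl1 (0.34) and Spcs2 (0.28), and the lowest were those of Sdf2l1 (-0.42), Ero1l (-0.41) and Sel1l (-0.40), with adjusted p of 0.894 or above. Single libraries moved several of these values. Without control library 3, Sdf2l1 was at -0.19, Sel1l at -0.20 and Spcs2 at 0.14. Without control library 1, Derl1 was at 0.18 and Ppp1r15a at 0.43, and without control library 2 Derl1 was at 0.61 and Spcs2 at 0.47. Hspa5 differed by 0.15, Ddit3 by -0.31, Pdia2 by -0.03 and Derl3 by -0.13 on the log2 scale. Ddit3 was at -0.07 without mutant library 1 and at -0.49 without mutant library 2, and Hspa5 at 0.26 without mutant library 1. The median over all 46 members was -0.03, against 0.05 over all features tested.

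In the Igf2 model, non-mesenchymal cells had 0 of 45 members called with limma, against 0.0631% of all 17441 features, and 1 member, Pdia2, had an unadjusted p under 0.05. Pdia2 was 79.3, 104 and 153 FPKM in mutants and 35.8, 73.9, 92.0 and 37.9 FPKM in controls (log2 fold change 0.96, 95% interval 0.01 to 1.90, adjusted p = 0.919). Mutant library 1 lay within the control range. Sdf2l1 was 20.3, 23.9 and 60.3 FPKM in mutants and 16.1, 20.2, 18.998 and 13.5 FPKM in controls (0.82, interval -0.07 to 1.72, adjusted p = 0.919). All mutant libraries were above all controls, the lowest of them by a narrow margin, and mutant library 3 stood well above the others. Without mutant library 3 the log2 fold change was 0.35. The groups did not overlap for 2 of the members, Sdf2l1 and Manf, or 2 of 45, against 6.02% of all features. Manf, a secreted stress-response factor, was 63.7 against 55.5 FPKM (0.20, adjusted p = 0.919).

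Derl3 was 5.54, 10.2 and 12.2 FPKM in Igf2 mutants and 3.74, 8.11, 4.05 and 3.89 FPKM in controls (log2 fold change 0.79, 95% interval -0.03 to 1.62, limma adjusted p = 0.919). Sec61b was 92.9, 110.5 and 87.8 FPKM against 54.3, 92.0, 78.8 and 56.5 FPKM (0.49, adjusted p = 0.919), with control library 2 inside the mutant range. The lowest values were those of P4hb (-0.35), Creld2 (-0.35) and Derl2 (-0.31). Without mutant library 3 P4hb and Creld2 were both at -0.59, P4hb was at -0.20 without mutant library 1 and Creld2 at -0.20 without mutant library 2, and Derl2 was at -0.10 without control library 2. Hspa5 differed by -0.08, Xbp1 by 0.26, Atf4 by 0.03 and Ddit3 by 0.28 on the log2 scale, the last at 0.15 without mutant library 1. The median over all 46 members was 0.08, against -0.03 over all features tested. The sum of the acinar marker list was 103690 to 121750 FPKM in the 3 mutants and 36207 to 52929 FPKM in the 4 controls, without overlap. Among the mutants, library 3 had the lowest acinar sum and the highest Pdia2, Sdf2l1 and Derl3. By the mean log2 value of that list, library 3 was the highest, at 8.94 against 8.78 and 8.92 in libraries 1 and 2. The order of the mutants by acinar level therefore depends on the measure. The leukocyte list was 968 to 1431 FPKM in mutants and 665 to 960 FPKM in controls, and the ductal list was 1286 to 1556 FPKM in mutants and 1633 to 1967 FPKM in controls. The part of these lists in the members' values was not tested.

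**Figure D4:**
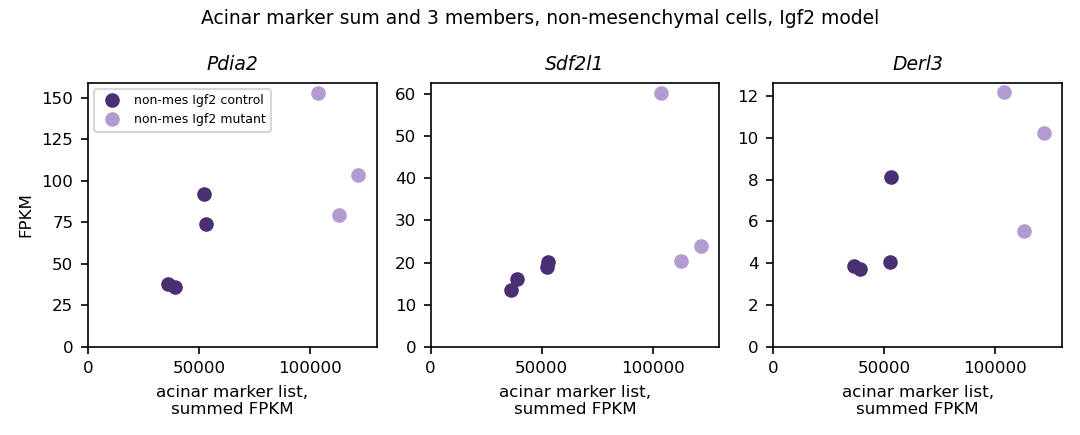
FPKM of Pdia2, Sdf2l1 and Derl3 against the summed FPKM of the acinar marker list in the 7 non-mesenchymal libraries of the Igf2 model; each point is a library. The 3 mutants lie to the right, at sums of 103690 FPKM and above, and the mutant with the smallest acinar sum has the highest value of each of the 3 genes. By the mean log2 value of the acinar list, which is not plotted, that mutant is the highest of the 3, at 8.94 against 8.78 and 8.92.

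The difference between the fractions was also compared between H19DMD controls and mutants, as an interaction of fraction and genotype. With limma 0 of 45 members were called, against 0.0117% of 17105 features, and 2 had an unadjusted p under 0.05. Sel1l had the highest value, 1.02 (95% interval 0.36 to 1.68, adjusted p = 0.755), with mesenchymal values up and non-mesenchymal values down in mutants. Hspa5 had -0.51 (interval -0.99 to -0.04, adjusted p = 0.755), with the opposite pattern. Ddit3, higher in mesenchymal cells of both genotypes, had 0.89 (interval -0.13 to 1.91, adjusted p = 0.827). The lowest values were those of Pdia5 (-0.64) and Pdia4 (-0.60). Pdia5 was at -0.21 without mesenchymal mutant library 3 and at -0.34 without non-mesenchymal control library 1. The effect of genotype in the Igf2 model was not tested against that in the H19DMD model, since the scaling between their tables is not given in the sources used here.

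**Figure D5:**
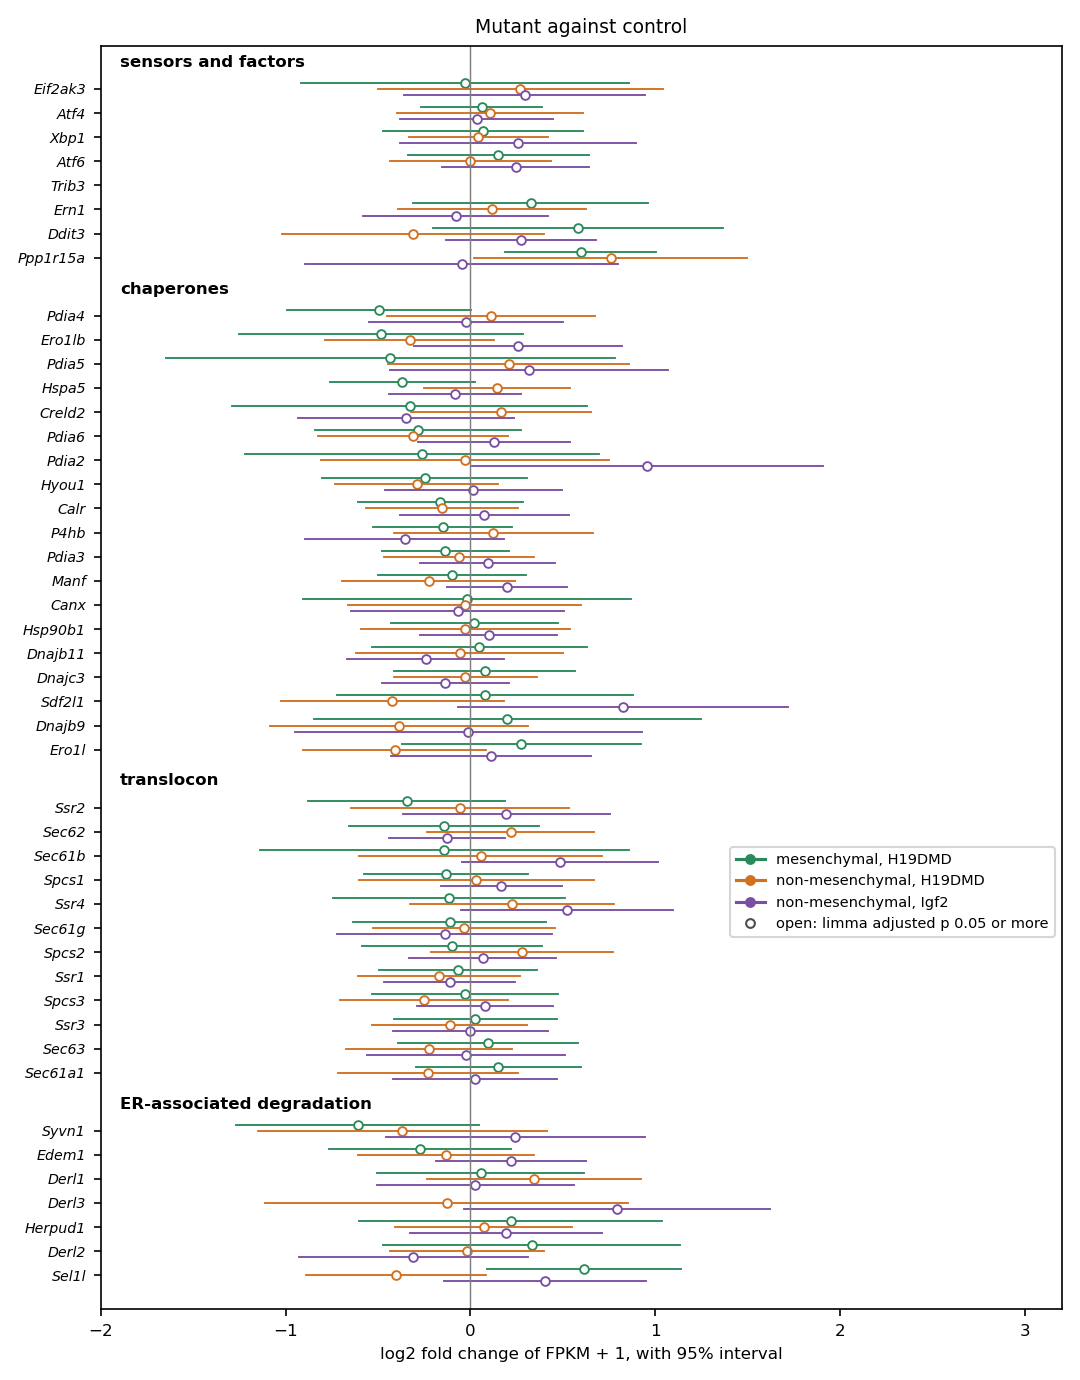
Log2 fold change of FPKM + 1 in mutants against controls for the members tested, by role, in mesenchymal cells of the H19DMD model (green) and in non-mesenchymal cells of the H19DMD (orange) and Igf2 (purple) models, with 95% intervals from limma. All points are open because no adjusted p was under 0.05; Trib3 was not tested, nor Derl3 in mesenchymal cells.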

How the data were processed

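Per the labels' protocols, RNA of sorted cells was amplified as whole transcriptome and sequenced single-end. Per the submitters' processing notes, TopHat2 2.0.8, Cufflinks 2.2.1 and GRCm38 were used. Per the file headers, the deposited values are FPKM per gene locus, in a table per model; scaling between libraries, annotation and strand use are not given in the sources used here. From these values log2(FPKM + 1) was computed, features averaging under 1 FPKM in a comparison were dropped, and limma 3.58.1 (R 4.3.3) was fitted with a variance trend to the groups of each comparison. P-values were adjusted by Benjamini and Hochberg over all features, with a threshold of 0.05. Fold changes understate differences of low genes. Exact two-sided permutation tests had smallest p-values of 0.1 (3 against 3) and 0.0286. The scripts were tested on simulated data.

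The members, lists and tests were chosen with earlier results of these data known. Named genes were those past the threshold without overlap, the extremes of each genotype comparison, and Hspa5, Xbp1, Ddit3, Atf4, Pdia2, Sec61b and Derl3. Others, such as Hsp90b1, Calr, P4hb, Pdia3, Pdia6, Ssr3, Manf, Derl1 and Mars, were chosen after their values were seen. Of the members, 39 matched a RefSeq promoter window by symbol or unique synonym, and the stretches shown are RefSeq sequence. Alternatives were another pseudocount, filter and scaling, a robust fit, all groups in one fit, the replicate number as a block, and each library left out. Mesenchymal control library 4 and non-mesenchymal control library 4 of the H19DMD model, and mesenchymal libraries of the Igf2 model, were not analysed here.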

Additional observations from a re-analysis of the deposited data

Results flagged for a closer look

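In groups of 4 libraries, a library was set apart where its gap to the nearest other library was a large part of the range of its group (Dixon's test at 95%). This held for 11 of 138 pairs of member and group, and chance gives about 1 in 20. In non-mesenchymal H19DMD mutants, Hspa5 was 285 FPKM in library 1 against 385 to 400 in the others, and Atf4 was 113.6 against 136 to 137 in the same library. In library 4 of that group P4hb was 329 FPKM, with the next at 243, and Creld2 was 25.7, with the next at 17.9. Xbp1 was 95.5 FPKM in library 3, with the next at 74.2, and Syvn1 was 37.1 in library 2, with the next at 22.2. In mesenchymal H19DMD mutants, Ero1l was 19.2 FPKM in library 3, with the next at 10.9, and Derl1 was 7.87 in library 2, with the next at 11.1. In non-mesenchymal Igf2 controls, Derl3 was 8.11 FPKM in library 2, with the next at 4.05. Ssr1 was 27.4 FPKM in library 3 of these controls, with the next at 22.2, and Spcs3 was 31.8 in library 1, with the next at 38.2.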

How the results depend on the processing

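The count of members lower in mesenchymal cells was 13 in controls and 8 to 14 over the alternatives, with 8 to 11 when a library was left out; it was 8 without non-mesenchymal control library 2. In mutants it was 14 and 10 to 14. The count higher was 1 in controls, 0 to 1 when a library was left out, and 0 with all 4 groups in one fit. In mutants the count higher was 1. It was 2 with a pseudocount of 0.1, with median-ratio scaling, with loci of at least 200 bases and with a robust variance trend, 3 with all 4 groups in one fit, and 1 to 2 when a library was left out (2 without non-mesenchymal mutant library 3 or 4). With the replicate number as a block the counts were 0 higher and 8 lower in controls and 3 higher in mutants. Between the fractions, deviations of same-numbered libraries had small positive correlations, 0.0174 to 0.0674 in controls and 0.00738 to 0.0419 in mutants. Those of different-numbered libraries were -0.0429 to 0.0231 and -0.0514 to 0.0309. Values this small neither show nor exclude a pairing by number, and the main fits did not use one. In the genotype comparisons and the interaction 0 members passed in every alternative run. Single libraries were left out for the members called between the fractions, the extremes of each genotype comparison and the other named genes, and the following values, none of them past the threshold, changed sign. Between the fractions these were Xbp1 (-0.138 to 0.0233 in controls, -0.16 to 0.11 in mutants), Syvn1 in controls (-0.464 to 0.115), and Ero1l (-0.22 to 0.14) and Derl1 (-0.11 to 0.061) in mutants. Between genotypes in mesenchymal cells they were Xbp1 (-0.0754 to 0.194; -0.0754 with the replicate block) and Sec61b (-0.63 to 0.225). In non-mesenchymal H19DMD cells they were Xbp1 (-0.0516 to 0.102; -0.012 with median-ratio scaling), Atf4 (-0.115 to 0.297), Pdia2 (-0.318 to 0.228), Sec61b (-0.203 to 0.338) and Derl3 (-0.522 to 0.386). In the Igf2 model they were Hspa5 (-0.148 to 0.0336), Xbp1 (-0.00271 to 0.445) and Atf4 (-0.0899 to 0.171). The cause was not tested. Ddit3, Ero1l, Ern1, Derl2, Hyou1 and Spcs3 in controls, and Atf6, Ssr2, Ssr4 and Ppp1r15a in mutants, lost their call in 4 to 9 of the alternatives run for each, and Dnajb9 in controls in 1. A call absent from the main fit was gained in 1 alternative by Atf6 in controls and by Dnajb9 in mutants. Calr and Ssr3 in mutants each gained a call in 3 alternatives. The number of reads is not known, so no limit from depth can be given for the lowest genes.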
